A study of Mus musculus with 4 samples.

Results

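The cells described here were taken as epithelial cells of the embryonic mouse penis that carried transcripts of the keratinizing, suprabasal programme of stratified epithelium. They were selected on measured counts of unique molecular identifiers (UMIs, each marking 1 captured mRNA molecule). A barcode was kept if it had more than 1000 UMIs, with mitochondrial genes at most 25% and hemoglobin genes of the Hba and Hbb families together at most 25% of them. A kept barcode was a member if at least 2 of the 4 markers Krt1, Krt10, Lor and Krtdap and at least 1 of the 5 epithelial genes Epcam, Cdh1, Krt5, Krt14 and Dsp were detected. This rule chose 350 of the 36423 kept barcodes (0.961%), out of 47040 barcodes deposited. Levels of these 9 genes in the selected cells follow from the choice and are given as a description.

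The 4 libraries came from male genitalia at embryonic day 16.5, with 2 libraries per genotype. The controls (DTA-) lacked Nr5a1-Cre and carried 1 conditional diphtheria toxin allele at the Rosa locus (DTA f/+). The Nr5a1 tdTomato+ cell–ablated penises (DTA+) carried the same allele together with Nr5a1-Cre, a transgene that is active in the adrenal, the gonad and a genital cell population, so the toxin was not limited to the penis. The study's methods add a Cre-dependent tdTomato reporter at the Rosa locus to the ablation mice, which the labels do not list. The study was designed to ask how transcription in the penis differs once Nr5a1 lineage cells are lost. The labels name the samples as replicates without saying how many embryos were in each, and p-values measure the spread between these libraries.

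Stratified epithelium is renewed from a basal layer anchored to the basement membrane, where cells express Krt5, Krt14, Krt15, integrins and the transcription factor Trp63. Cells that leave this layer switch to Krt1 and Krt10, the keratins of the spinous layer, reinforce their desmosomes, and later make proteins of the cornified envelope such as loricrin (Lor), filaggrin (Flg) and involucrin (Ivl). Krtdap encodes a small secreted protein of differentiating keratinocytes. In the embryo a periderm covers this epithelium before it cornifies, and in the genitalia it forms the skin of the prepuce and glans and adjoins the urethral lining.

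The deposited counts held 73577028, 53654435, 50794318 and 50779551 UMIs in DTA- 1, DTA- 2, DTA+ 1 and DTA+ 2. The selected cells numbered 130, 61, 107 and 52 in that order, with 3040832, 1302994, 2459212 and 635218 UMIs. They were deeper than the other cells of their libraries. The median was 12013, 11710, 7625 and 6158.5 UMIs per selected cell against 5454, 4372, 3803 and 3771 per kept cell. Depth was thus higher in both control libraries than in both ablated ones. The deepest selected cell had 167113 UMIs, and the 5 deepest cells of a library held between 19.9% and 40.9% of its selected UMIs, so that sums over cells leaned on few of them. Doublets were not removed and their part in the results was not tested. Of the 350 cells, 2 had a barcode that also occurred in another library.

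The promoters of the marker genes are shown because these transcripts define the cells. RefSeq (GRCm38.p6) gave a promoter for Krt10, Lor and Krtdap. The 120 bases before the start site are printed on the gene's strand, with the letters TATAAA and the AP-1 letters TGANTCA in capitals. Krt10 lies on the minus strand of chromosome 11 (chr11:99389365-99389484), Lor on the minus strand of chromosome 3 (chr3:92083143-92083262) and Krtdap on the plus strand of chromosome 7 (chr7:30787785-30787904).
Krt10: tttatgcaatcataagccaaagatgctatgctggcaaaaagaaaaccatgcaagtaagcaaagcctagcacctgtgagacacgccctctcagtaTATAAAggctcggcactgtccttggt
Lor: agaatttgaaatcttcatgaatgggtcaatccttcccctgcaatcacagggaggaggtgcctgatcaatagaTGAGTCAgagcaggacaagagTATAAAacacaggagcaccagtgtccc
Krtdap: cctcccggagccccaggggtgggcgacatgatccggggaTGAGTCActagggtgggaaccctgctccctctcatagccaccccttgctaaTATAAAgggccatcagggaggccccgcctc
Counted back from the start site, TATAAA began at -26 in Krt10, -27 in Lor and -30 in Krtdap. TGANTCA began at -48 in Lor and -81 in Krtdap and was not among the letters of the Krt10 window. In the full windows of 300 bases (250 before and 50 after the start), TGANTCA, which reads the same on both strands, also occurred for the spinous genes Sbsn, at -119 and -6, and Dmkn. Neither motif occurred for the spinous gene Sfn, for Cstdc5, which is described further on, or for Krt5, Epcam and Dsp of the rule. The RefSeq windows of Krt14 and Lgals7 lie inside the GENCODE genes and are not described here. Over all 32851 windows, 7.81% held TGANTCA and 8.32% held TATAAA on the gene's strand (13.6% on either strand). A match is a description of letters and not a binding site.

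The label was checked against the data. Across the whole transcriptome, the 20 genes with the largest ratio of the selected cells over all other kept cells held 6 genes of the rule (Krt14, Krt5, Krtdap, Krt1, Dsp and Epcam), whose place follows from the choice. The other 14 were a mixture of basal genes (Krt15, Trp63 and Col17a1, a hemidesmosome collagen), spinous genes (Ly6d, a surface protein of stratifying epithelium, Sfn and Dmkn), the desmosome component Perp and further epithelial genes. As a description, Krt14 was at 3081.72, 2242.53, 2582.94 and 1772.62 counts per 1000000 UMIs summed over the cells (CPM) in DTA- 1, DTA- 2, DTA+ 1 and DTA+ 2, against 21.3 to 46.6 CPM in the other kept cells. Krt15, which the rule did not use, was at 921.72 to 1287 CPM against 14.2 to 38.3. CPM of 3' libraries are not scaled by gene length, so levels are compared between cells and not between genes.

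**Figure D1:**
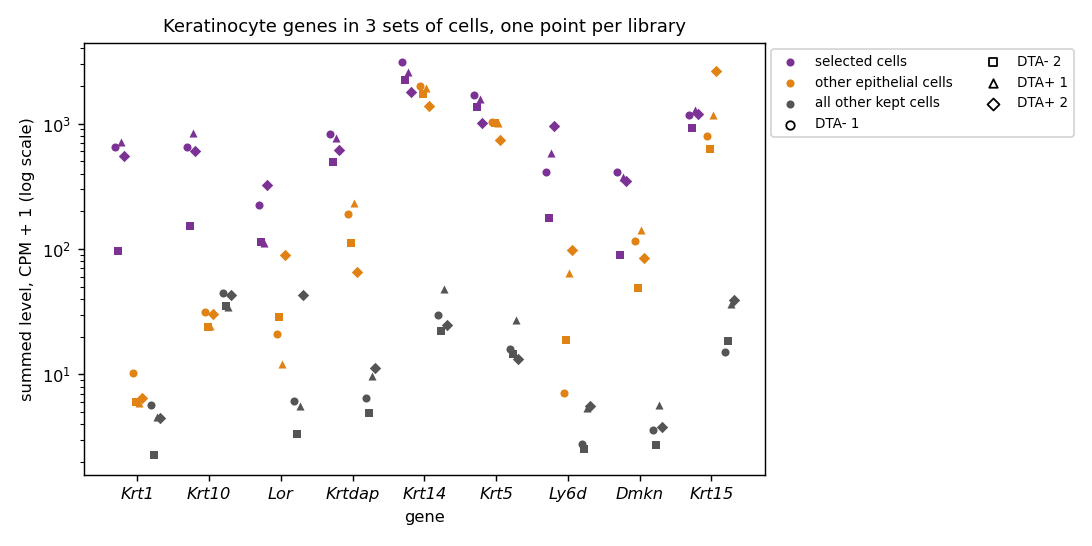
Level of 9 keratinocyte genes in the selected cells (purple), other epithelial cells (orange) and all other kept cells (grey), as CPM + 1 on a log scale, with 1 point per library (symbol shape). Krt1 is at 95.17 CPM or more in the selected cells and at 9.22 CPM or less in the other sets, while Krt14, Krt5 and Krt15 are high in both epithelial sets.

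The markers themselves took a small share of most cells. Krt1, Krt10, Lor and Krtdap together made up a median of 0.0765% of a cell's UMIs, with a range from 0.0032% to 11.9%. In 44 of 350 cells (12.6%) they reached at least 0.5%. These 44 cells were 13 of 130, 1 of 61, 18 of 107 and 12 of 52 in DTA- 1, DTA- 2, DTA+ 1 and DTA+ 2, so DTA- 2 had nearly none. The median share was 0.0676%, 0.0732%, 0.0948% and 0.0936% in that order, higher in both ablated libraries. Those were also the shallower libraries, and the part of depth was not tested. Exactly 2 markers were detected in 185 cells (52.9%), 3 in 100 and all 4 in 65. At least 3 of the 5 epithelial genes were detected in 268 cells (76.6%), and only 1 in 52. Since most cells held little of the markers, and basal genes beside them, the set is called selected keratinocytes here. The name covers every cell that met the rule. It does not mean that each was a keratinocyte, since 32 of the 350 had collagen above 0.5% of UMIs.

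**Figure D2:**
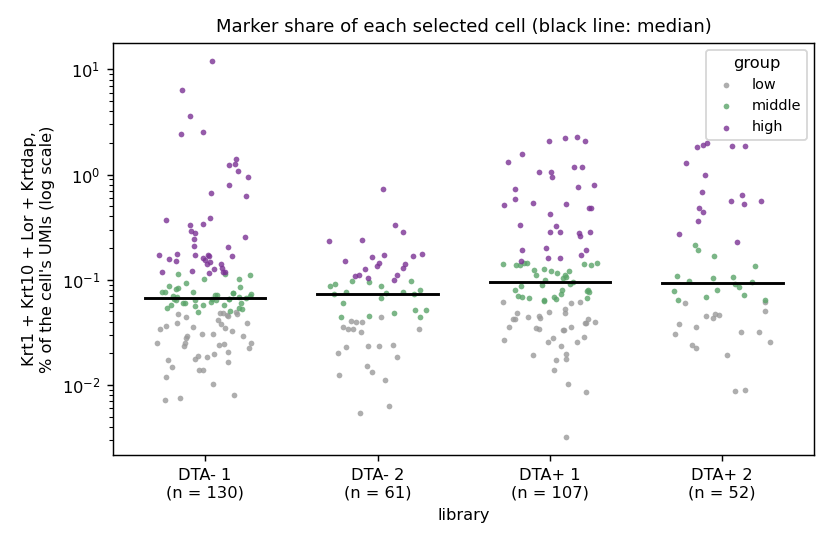
Share of each selected cell's UMIs that came from Krt1, Krt10, Lor and Krtdap (log scale), by library, with the library median as a black line. Colours give the low, middle and high group of equal size in each library, and the highest cell of the DTA- 2 library is at 0.728%.

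At the edge of the rule, cells with exactly 2 markers had 372 to 829 CPM of the 4 markers and 2784 to 4475 CPM of the 5 epithelial genes. Cells just outside, with exactly 1 marker and at least 1 epithelial gene, had 204 to 258 CPM of the markers and 1080 to 1828 CPM of the epithelial genes. The 3 collagen transcripts Col1a1, Col1a2 and Col3a1 were between 475 and 6661 CPM in the former and between 3304 and 8381 CPM in the latter.

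Detection of a marker in a droplet can come from free RNA, so cells that should lack it give the background. Among immune cells, defined by at least 3 detected genes of the immune list, 3 of 861 met the rule. A UMI of Krt1 was present in 49.2% to 51.5% of the selected keratinocytes of a library and in 0 to 1.12% of immune cells, whose median depth was 5933 to 7003 UMIs. Krt10 was less clean, with 59.6% to 81.5% of the selected keratinocytes and 6.15% to 10.1% of immune cells. It was also found in 13.7% to 23.9% of all other kept cells, at 33.6 to 43.8 CPM, above its 22.8 to 30.7 CPM in the other epithelial cells described further on. After each cell was thinned to 1000 UMIs, Krt10 was detected in 14.8% to 32.7% of selected keratinocytes and 0.922% to 2.22% of immune cells, and Krtdap in 29.5% to 50.5% and in none of the immune cells. Lor differed between libraries in the background. Its level in all other kept cells was 5.17, 2.35 and 4.57 CPM in DTA- 1, DTA- 2 and DTA+ 1 and 42.3 CPM in DTA+ 2, where 3.35% of immune cells had a UMI.

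The 4 markers were not alike in the 4 libraries. Krt1, a type II keratin on chromosome 15 (chr15:101845426-101850794), was at 647.85, 95.17, 713.24 and 554.14 CPM in DTA- 1, DTA- 2, DTA+ 1 and DTA+ 2. Its partner Krt10 was at 650.81, 151.96, 845.39 and 599.79 CPM. DTA- 2 was thus the low library for both keratins, and the other 3 lay close together. Krtdap was at 827.41, 489.64, 766.51 and 615.54 CPM. Lor was at 223.95, 112.05, 111.01 and 322.72 CPM, lowest in DTA+ 1 and DTA- 2 and highest in DTA+ 2. In none of the 4 markers did the genotypes separate.

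The differentiation programme was followed along the marker share. The cells of each library were ranked by the share of their UMIs in the 4 markers and divided into a low, a middle and a high group of equal size. The groups also differed in depth. The median was 13135.5, 17180, 14679 and 10083 UMIs per cell in the low groups of DTA- 1, DTA- 2, DTA+ 1 and DTA+ 2 and 11936, 9866.5, 5243 and 4962 in the high groups, and a deep cell can meet the rule with a smaller marker share. Cells with collagen above 0.5% of UMIs numbered 7, 4, 1 and 4 in the low and 2, 1, 2 and 0 in the high groups. The part of depth and of these cells in the differences between groups was not tested. Among 4863 genes with at least 20 CPM in the selected keratinocytes of every library, leaving out the 9 genes of the rule, 7.75% were higher in the high than in the low group in 4 of 4 libraries and 24.4% were lower in 4 of 4. No test was made on this division.

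Spinous genes were higher where the markers were. Of the 14 listed, 6 were measurable in every library at this level, and 5 of these (Ly6d, Dmkn, Fabp5, Sfn and Serpinb5) were higher in the high group in 4 of 4 libraries. Among all measurable genes, 7.75% were. Ly6d had 15.41, 19.54, 40.25 and 7.08 CPM in the low groups of DTA- 1, DTA- 2, DTA+ 1 and DTA+ 2. In the high groups it had 1255.12, 492.47, 2172.94 and 2883.04 CPM. No low group came near a high group. Dmkn, the secreted dermokine, was between 10.9 and 139 CPM in the low and between 162 and 1121 CPM in the high groups. The exception was Sbsn (suprabasin), which was lower in the high than in the low group in DTA- 2, at 33.0 against 112.89 CPM, and reached 1842.23 CPM in the high group of DTA+ 2. Outside the lists, Cstdc5 and Stfa3, both of the stefin family of protease inhibitors, and Lgals7 were among the genes with the largest ratios. Cstdc5 was at 21.2 to 56.5 CPM in the low and 300 to 2534 CPM in the high groups.

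Junction genes had the same direction. Of 20 listed, 10 were measurable and 8 were higher in the high group in 4 of 4 libraries (7.75% of all measurable genes were). The 8 were Jup, Pkp1, Pkp3, Dsg3, Dsc3 and Perp of the desmosome and the gap junction genes Gjb2 and Gja1. Dsg2 and Tjp1 were mixed. Pkp1, a plakophilin of suprabasal desmosomes, was at 30.4 to 102 CPM in the low groups and 73.6 to 234 CPM in the high groups. The list summed to 951.6, 831.5, 1566.2 and 1114.8 CPM in the low groups and to 2870.2, 1408.9, 3182.9 and 3158.9 CPM in the high groups, with the smallest difference in DTA- 2.

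Transcripts of late cornification were low or came from few cells. Of the 33 cornified envelope genes, 1 (Ppl, periplakin) was measurable in every library and it was mixed. Sprr2a1, Sprr2d, Lce1f and Lce3b had no UMI in any selected cell. Flg was at 0 in every low and middle group and in the high groups of DTA- 2 and DTA+ 2, and at 68.1 and 3.83 CPM in the high groups of DTA- 1 and DTA+ 1. Ivl did not exceed 11.5 CPM and Tgm1, the envelope cross-linking enzyme, 46.8 CPM in any group. The list's gene with the highest mean level over libraries was Cnfn, at 98.7 CPM. Of 14 proteases and regulators of shedding, 4 were measurable (Asprv1, Klk8, Blmh and Ctsd) and all were mixed. Of 21 genes of barrier lipid synthesis, Elovl1 alone was measurable, and it was higher in the high group in 4 of 4 libraries.

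Basal genes had no shared direction. Of 13 (of 14 listed) measurable basal genes, 11 were mixed between libraries, Krt15 was higher in the high group in 4 of 4 and Postn was lower in 4 of 4. Postn is also in the mesenchyme list and is counted again there. Among all measurable genes, 7.75% were higher and 24.4% lower in 4 of 4. Krt15 was at 500.84, 486.3, 949.33 and 750.3 CPM in the low and 1710.25, 1172.79, 1308.36 and 1493.56 CPM in the high groups. Krt14 itself, a gene of the rule, was higher in the high than in the low group in each library. Col17a1 was higher in the high group in 3 libraries and lower in DTA+ 2, at 62.5 CPM against 304 CPM in its low group.

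Among transcription factors of differentiation, 13 of 25 were measurable. Of these, 2 were higher in the high group in 4 of 4 libraries, Tfap2c among them, Id1 was lower in 4 of 4 and the other 10, with Trp63, Klf4 and Gata3 among them, were mixed. Of 7 measurable Notch pathway genes, Notch2 was higher in 4 of 4 and the rest were mixed. Of 4 EGF receptor pathway genes, the receptors Erbb2 and Erbb3 were higher in 4 of 4. Of 11 cell cycle genes, Gmnn was higher in 4 of 4, Cdk1 was lower in 4 of 4 and 9 were mixed. Among all measurable genes, 7.75% were higher and 24.4% lower in 4 of 4.

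The remaining lists were as follows. Their counts stand against 7.75% of all measurable genes higher and 24.4% lower in the high group in 4 of 4 libraries. Of 4 measurable genes of periderm and simple epithelium, Krt17 was higher and Krt18 lower in the high group in 4 of 4 libraries. Of 3 urethral genes, the water channel Aqp3 was higher in 4 of 4, and of 2 follicle genes, Tfap2b was. Of 7 glucocorticoid-responsive genes, Txnip was lower in 4 of 4 and none was higher. Of 4 androgen-related genes, 2 were lower in 4 of 4, Acsl3 among them, and none was higher. Of 16 dissociation stress genes, the heat shock genes Hspb1 and Dnajb1 were higher in 4 of 4 and Ier3, Hsp90aa1 and Socs3 were lower. The other measurable genes of these lists were mixed.

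Mesenchymal transcripts were higher in the low group in 3 of 4 libraries. Of 10 measurable mesenchyme genes, 4 (Vim, Col6a1, Prrx1 and Postn) were lower in the high group in 4 of 4 libraries, against 24.4% of all measurable genes. The whole list of 15 summed to 5195.2, 9419.9, 1545.2 and 2895.0 CPM in the low groups and to 2370.8, 1312.4, 2253.3 and 176.9 CPM in the high groups, so that DTA+ 1 went the other way. Over all selected keratinocytes it summed to 3315.2, 4874.2, 2208.4 and 1673.4 CPM, with Dcn the gene of the highest mean level, against 12573.8, 18430.5, 17304.5 and 13332.9 CPM in all other kept cells. Collagen above 0.5% of UMIs was found in 32 of the 350 cells. Immune genes summed to 7.2 to 40.3 CPM, endothelial genes to 12.6 to 60.2 CPM and muscle genes to 10.2 to 116.1 CPM. Melanocyte genes summed to 95.4 CPM in DTA- 1 and at most 4.7 CPM elsewhere, and 97.8% of the Dct UMIs in DTA- 1 were in 1 cell. Erythroid genes summed to 2563.8, 1523.4, 1039.4 and 127.5 CPM and neural and glial genes to 65.9 to 202.6 CPM. The part of these transcripts in the differences between groups was not tested.

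**Figure D3:**
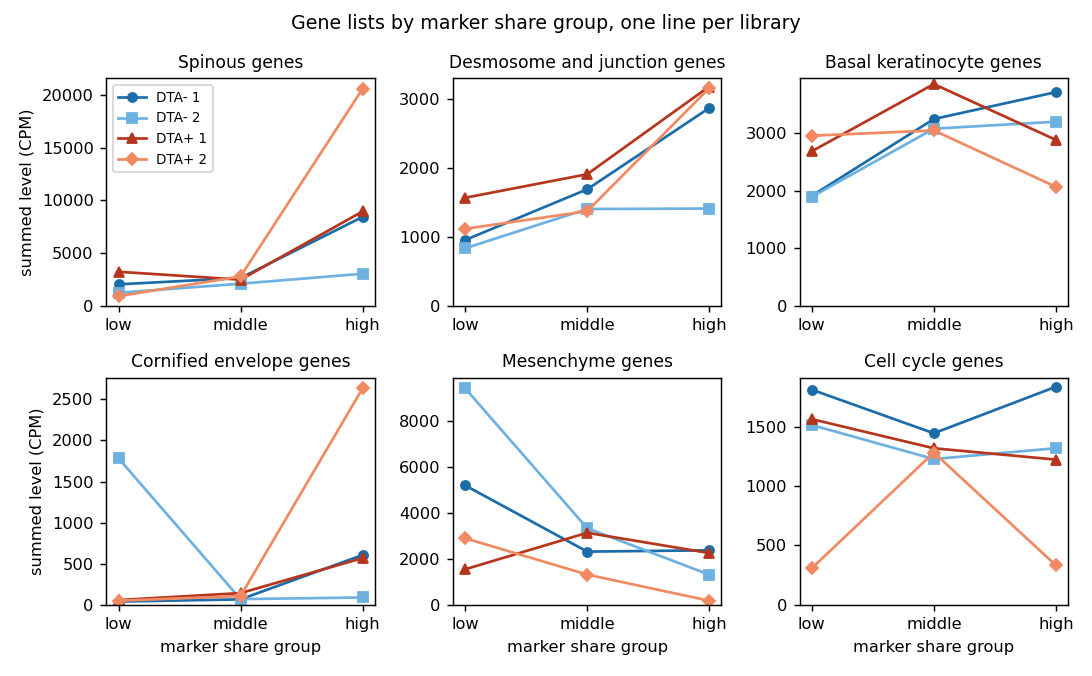
Summed level of 6 gene lists (CPM) in the low, middle and high group of marker share, with 1 line per library. Spinous and junction genes are higher in the high than in the low group in every library, whereas the cornified envelope list peaks in the low group of DTA- 2 (1782.4 CPM) and in the high group of DTA+ 2 (2633.2 CPM).

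Several periderm and cornified genes owed their level to few cells. The 14 genes of periderm and simple epithelium summed to 798.8, 3475.1, 1085.7 and 2506.2 CPM, with the second library of each genotype high. The most abundant of them, Krt17, was widespread, in 102, 54, 91 and 29 cells with at most 20.3% of its UMIs in 1 cell. For other genes, chosen here after their values were seen, the richest cell of a gene held most of it. In DTA- 2 that cell had 99.96% of the 2274 UMIs of Psca. For Krt13, a keratin of non-cornifying epithelium, it had all of the 468 UMIs in DTA- 2 and 88.3% of the 239 in DTA+ 2. For Sprr1a it had 98.8% in DTA- 2, and for Cnfn all 129 UMIs in DTA+ 2. Whether these were the same cell was not examined. Krtdap was spread wider, with 13.6% to 28.1% of its UMIs in its richest cell. Fabp5, a fatty acid carrier of spinous cells, was at 2470.05, 1275.52, 2297.48 and 4766.87 CPM, and 57.2% of its UMIs in DTA+ 2 were in 1 cell.

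**Figure D4:**
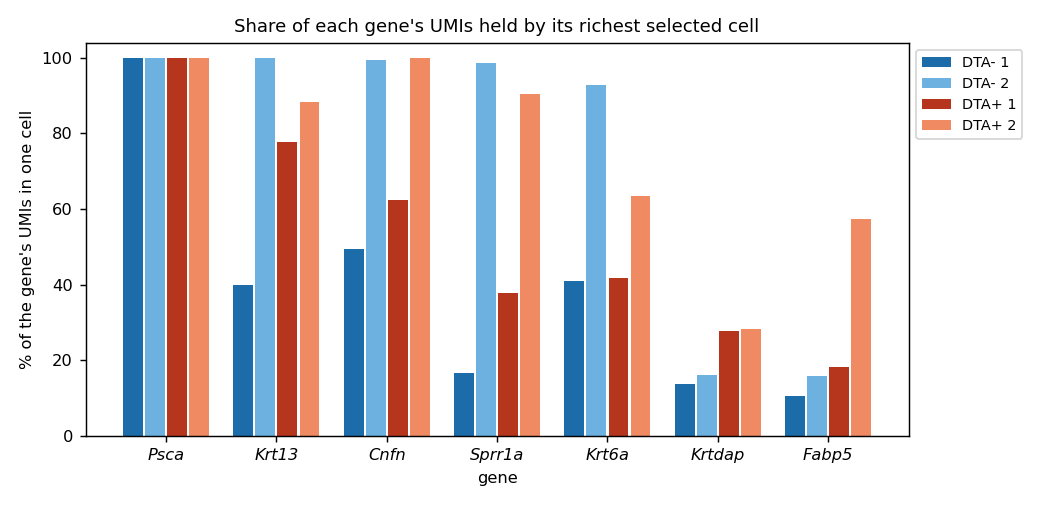
Percentage of a gene's UMIs in the selected cells of a library that was held by its richest cell, for 7 genes and 4 libraries (bars from 0). Psca, Krt13, Cnfn, Sprr1a and Krt6a reach 92.8% to 100% in DTA- 2, while Krtdap stays at or below 28.1% in every library.

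The closest comparison is with other epithelial cells, the 283 kept cells outside the rule in which at least 3 of the 5 epithelial genes were detected (77, 55, 97 and 54 per library, median depth 5200 to 7604 UMIs). Both sets expressed basal genes. Krt15 was at 1166.79, 921.72, 1287 and 1183.85 CPM in the selected keratinocytes and at 798.76, 623.68, 1175.59 and 2616.57 CPM in the other epithelial cells, where DTA+ 2 was high. The genes with the largest ratios of the selected keratinocytes over the other epithelial cells were Krt1, Krt10, Ly6d and Cstdc5. Ly6d was at 413.04, 174.98, 581.08 and 949.28 CPM in the selected keratinocytes and at 6.14, 17.75, 63.61 and 97.32 CPM in the other epithelial cells. Cell cycle genes summed to 1690.7, 1357.6, 1413.5 and 562 CPM in the selected keratinocytes and to 2479.2, 2066.3, 1790.9 and 2109.8 CPM in the other epithelial cells, lower in the former in each library. The sets were chosen on counts of the same cells, and no test was made.

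The share of selected keratinocytes among kept cells did not separate the genotypes. It was 1.47% (95% Wilson interval 1.24% to 1.74%) in DTA- 1, 0.681% (0.530% to 0.873%) in DTA- 2, 1.22% (1.01% to 1.47%) in DTA+ 1 and 0.529% (0.403% to 0.692%) in DTA+ 2, intervals that cover counting error only. The mean was 1.08% ± 0.559 (SD, n = 2) for DTA- and 0.873% ± 0.487 (SD, n = 2) for DTA+. The log2 ratio was -0.30, with p = 0.667 in an exact two-sided permutation test, which cannot go below 0.33 with 2 against 2. Detection depends on depth, and the selected cells were deeper in the controls. With every kept cell thinned to 1000 UMIs and the rule applied again, 19, 8, 29 and 18 cells remained and the log2 ratio was 0.75. Replicate 1 of each genotype had the larger share.

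Gene expression was then compared between the genotypes on UMI counts summed per library over the selected keratinocytes, with edgeR's quasi-likelihood test and Benjamini-Hochberg adjustment. Of 10406 genes tested, 1 (0.00961%) passed an adjusted p of 0.05. It was tdTomato, the fluorescent reporter, whose row was added to the genome. No gene passed as lower in DTA+, where the DESeq2 Wald test called 5. At an unadjusted p under 0.05 there were 621 genes (5.97%), 309 higher (2.97%) and 312 lower (3%) in DTA+. The genotypes did not overlap in 39.1% of all genes tested, with 23.3% higher and 15.8% lower in DTA+.

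tdTomato had 0 UMIs in both control libraries and 57.34 and 62.97 CPM in DTA+ 1 and DTA+ 2, from 141 and 40 UMIs. Against the level that 3 counts over both control libraries would give, it was at least 87.1-fold higher in DTA+ (adjusted p = 0.026, edgeR quasi-likelihood). The study's methods give this reporter to the ablation mice, so the call can follow from the cross and is not read as a response of these cells. The call was lost without either DTA+ library, where 1 DTA+ library remained and the spread came from the controls alone. The log2 fold change was between 6.83 and 10.02 in the 15 alternatives that tested it. A UMI was found in 45.8% and 32.7% of the selected cells of DTA+ 1 and DTA+ 2. The study describes the tdTomato transcript as leaky, with a low background in most cells, and took only cells above a count threshold as positive. Detection of a UMI is therefore no sign of lineage here. The reporter was no mark of these cells, since all other kept cells had 81.6 and 66.6 CPM in DTA+ and 0 in DTA-. Its companion reporter row, eGFP, had no UMI in any library. By the study's methods the tdTomato reporter sits at the Rosa locus of the ablation mice, so this locus can differ between the genotypes beyond the toxin allele. The part of this in the next gene was not tested. Gt(ROSA)26Sor, the noncoding transcript of the Rosa locus that carries the toxin allele in both genotypes (chr6:113067428-113077333), was at 18.74, 22.26, 67.91 and 110.2 CPM. It did not pass (log2 fold change 2.02 ± 0.27 SE, adjusted p = 0.618, edgeR quasi-likelihood), but did with the DESeq2 Wald test (adjusted p = 0.00378) and in 3 further alternatives of 14.

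**Figure D5:**
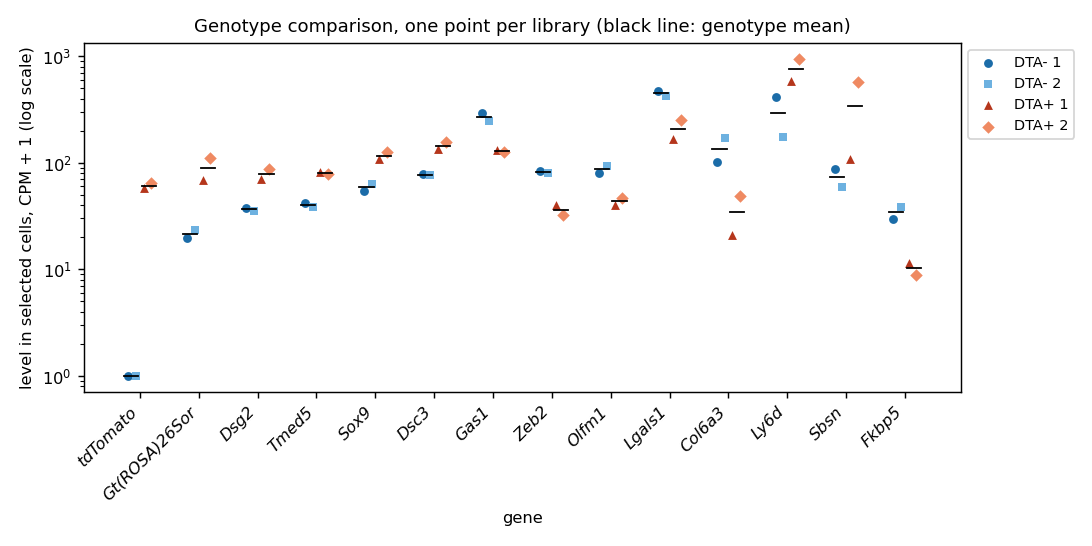
Level of 14 genes in the selected cells of each library (CPM + 1, log scale), controls in blue and ablated in red, with genotype means as black lines. Only tdTomato passed the test, and the other genes are those nearest to it in either direction together with Ly6d, Sbsn and Fkbp5. The nearest were taken among genes at a mean of at least 50 CPM without overlap between genotypes.

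The 5 genes with the smallest unadjusted p among those higher in DTA+, at a mean of at least 50 CPM and without overlap, did not pass the threshold (adjusted p = 0.618 for each, edgeR). Beside Gt(ROSA)26Sor they were Dsg2, Tmed5, Sox9 and Dsc3. Dsg2, a desmosomal cadherin, was at 36.83, 34.54, 69.94 and 86.58 CPM, a log2 fold change of 1.04 ± 0.18 SE. Dsc3, its counterpart in the desmosome, was at 76.62, 75.21, 133.38 and 154.28 CPM. Sox9, a transcription factor of the urethral and follicular epithelium, was at 53.6, 62.16, 106.54 and 124.37 CPM. Tmed5, a protein of vesicle traffic, was at 41.11, 37.61, 80.51 and 77.14 CPM. In each of these the 2 libraries of a genotype lay closer to one another than to the other genotype. Since the genes were chosen for a small p and no overlap, this is a description only.

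Under the same limits of level and overlap, the 5 nearest on the lower side were Gas1, Zeb2, Olfm1, Lgals1 and Col6a3. Each likewise had an adjusted p of 0.618 (edgeR). Gas1, a growth arrest and hedgehog-binding protein, was at 293.01, 246.36, 129.31 and 124.37 CPM (log2 fold change -1.15 ± 0.18 SE). Zeb2, a mesenchymal transcription factor, was at 83.53, 79.82, 39.04 and 31.49 CPM, and Lgals1 at 468.29, 423.64, 166.31 and 248.73 CPM. Col6a3, a fibroblast collagen, was at 100.63, 168.07, 19.93 and 47.23 CPM. Its log2 fold change was -2.24, but -0.052 in cells under 7500 UMIs, and it passed in 5 of 14 alternatives, with an adjusted p of 0.00271 in the DESeq2 Wald test. Of 15 mesenchyme genes tested, 9 had an unadjusted p under 0.05 and were lower in DTA+ and none was higher. The shares over all genes were 3% lower and 2.97% higher. The median log2 fold change of the 15 was -0.85 against -0.01 over all genes. None passed the adjusted threshold (smallest adjusted p = 0.618, edgeR). In cells under 7500 UMIs, 7 of these 9 were higher in DTA+, from 0.18 for Lum to 1.63 for Twist1. Among the alternatives, Vim passed in the DESeq2 Wald test (adjusted p = 0.0246). With the replicate number as a block, Col1a1 (adjusted p = 0.0108, edgeR) and Col3a1 (adjusted p = 0.0174, edgeR) passed. The part of mesenchymal transcripts in the other differences was not tested. Without the cells whose collagen exceeded 0.5% of UMIs, Col1a1 went from -2.07 to -0.50, Col1a2 from -1.72 to -0.47 and Col3a1 from -1.67 to -0.44, while Zeb2 went from -1.22 to -1.08 and Gas1 from -1.15 to -0.87. In cells under 7500 UMIs, Zeb2 had a log2 fold change of 2.35 and Lgals1 of 0.13. The DESeq2 Wald test also called Gas1 (adjusted p = 0.0463) and Lgals1 (adjusted p = 0.0209).

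By list, none of the differentiation genes passed the test. Over all genes tested, 2.97% were higher and 3% lower in DTA+ at an unadjusted p under 0.05. Each list count here and in the next paragraphs stands against these shares. Of 11 spinous genes tested, 4 had an unadjusted p under 0.05 and a higher level in DTA+, none a lower one, and the median log2 fold change was 0.75. They were Ly6d, Sbsn, Lypd3 and Calml3 (adjusted p = 0.776 for each, edgeR). DTA- 2 was the lowest library for each of these 4 genes. It was also the library where 1 of 61 cells had a marker share of at least 0.5%, against 13 of 130, 18 of 107 and 12 of 52 in DTA- 1, DTA+ 1 and DTA+ 2. The part of marker share in these differences was not tested. Ly6d had a log2 fold change of 1.30 ± 0.39 SE. Sbsn was at 87.15, 58.33, 107.76 and 576.18 CPM, so that DTA+ 2 set its difference, and 45.6% of its UMIs there, and 63.2% of those in DTA- 2, were in 1 cell. Lypd3 was at 21.05, 6.91, 44.32 and 45.65 CPM. Calml3 had a log2 fold change of 1.41, with 67.7% of its UMIs in DTA+ 2 in 1 cell, and of -0.87 in cells under 7500 UMIs. Cornified envelope genes had 1 of 12 lower (Hrnr) and none higher, and proteases (0 of 7) and barrier lipid genes (0 of 9) had none in either direction. Hrnr had 40, 15, 11 and 6 UMIs in DTA- 1, DTA- 2, DTA+ 1 and DTA+ 2. Its richest cell held 50%, 100%, 90.9% and 83.3% of them.

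Of 24 transcription factors of differentiation, 6 had an unadjusted p under 0.05, each higher in DTA+ (against 2.97% of all genes). They were Casz1, Cebpa, Cebpb, Ehf, Gata3 and Grhl1. Cebpb turned from 0.57 to -0.12 on the log2 scale in cells under 7500 UMIs. In DTA+ 2, 1 cell held 55.2% of the Cebpa UMIs and 54.05% of those of Cebpb. For Ehf, 1 cell held 51.1% of the UMIs in DTA+ 1. For Casz1, Gata3 and Grhl1 the richest cell held at most 48.7%, 20.9% and 33.3% in any library. Gata3 was at 70.7, 51.42, 127.28 and 105.48 CPM. Casz1 was at 20.72, 29.93, 51.64 and 50.38 CPM. The median log2 fold change of the list was 0.31. Of 17 junction genes, Dsg2 and Dsc3 were the 2 under that p. Of 11 Notch pathway genes, Rbpj, the DNA-binding partner of Notch, was the only one under it, at 36.5, 38.37, 56.52 and 56.67 CPM. Of 14 basal genes, none had an unadjusted p under 0.05, and the median was -0.25.

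Periderm and simple epithelial genes had 4 of 11 higher (Krt8, Krt4, Krt18 and Krt17) and 1 lower (Krt6b) at an unadjusted p under 0.05. Among all genes, 2.97% were higher and 3% lower at that p. Krt8, a keratin of simple epithelium and periderm, was at 15.46, 12.28, 41.88 and 77.14 CPM, a log2 fold change of 1.91 ± 0.33 SE (adjusted p = 0.618, edgeR). Its UMIs came from 15, 4, 7 and 7 cells. The richest cell held 21.3%, 75%, 48.5% and 71.4% of them. In cells under 7500 UMIs the log2 fold change was -0.021 for Krt8 and -0.088 for Krt18, against 0.91 for Krt18 in all selected cells. For Krt4, 1 cell held 81% of the UMIs in DTA+ 1. For Krt6b, 1 cell held 88% of the 25 UMIs in DTA- 1 and all 13 in DTA- 2. In DTA+ 1 and DTA+ 2 it had 6 and 3 UMIs, with 100% and 66.7% in 1 cell. Of 6 urethral genes, Sox9 and Shh were higher, the latter at 3.62, 9.98, 24.4 and 20.47 CPM. Of the Shh UMIs, 95% of the 60 in DTA+ 1 and all 13 in DTA+ 2 were in 1 cell. None of 8 follicle genes, and of 5 EGF receptor genes Hbegf alone, reached that level. For Hbegf, 71.4% of the 21 UMIs in DTA+ 2 were in 1 cell. Cell cycle genes had 2 of 18 lower (Cdk1 and Gmnn) and none higher, with a median of -0.55, the lowest sum being that of DTA+ 2.

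Nr5a1-Cre is active in the adrenal and the testis, the sources of glucocorticoids and androgens, so genes that respond to these hormones were listed. Fkbp5, a chaperone that glucocorticoids and androgens induce (chr17:28399094-28517527), was at 28.94, 37.61, 10.57 and 7.87 CPM in the selected keratinocytes. The 2 controls lay above the 2 ablated libraries. The log2 fold change was -1.77 ± 0.31 SE, and the adjusted p of 0.618 (edgeR) missed the threshold. The counts behind it were small, 88, 49, 26 and 5 UMIs. In other epithelial cells it was at 35.3, 40.6, 7.34 and 16.5 CPM and in all other kept cells at 71.4, 75.0, 14.2 and 14.6 CPM. Of 15 glucocorticoid-responsive genes, Fkbp5 and Per1 were lower and Nr3c1, the receptor, was higher at an unadjusted p under 0.05, and the others did not reach it. Among all genes, 3% were lower and 2.97% higher at that p. Tsc22d3 was at 24.99, 27.63, 11.79 and 34.63 CPM, overlapping between genotypes. Of 7 androgen-related genes, Srd5a1, which makes dihydrotestosterone, was the only one under that p, at 27.62, 27.63, 44.73 and 42.51 CPM.

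Among lists that describe handling and other cells, 1 of 18 dissociation stress genes (Atf3) was higher in DTA+ at an unadjusted p under 0.05, and none of these 18 was lower. The shares over all genes were 2.97% higher and 3% lower. Of the Atf3 UMIs in DTA+ 2, 50.6% were in 1 cell. At the same unadjusted p, 1 of 3 neural genes (Stmn2), 1 of 2 muscle genes (Tagln) and 1 of 4 erythroid genes (Hbb-bt) were lower, and the 1 endothelial gene tested was neither. Immune and melanocyte genes were too low to be tested.

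The other epithelial cells were put through the same test. Of 6937 genes, 2 (0.0288%) passed, Nupr1 and Neat1, both higher in DTA+. Neither passed with DESeq2 size factors, with collagen at most 0.5% of UMIs or without DTA- 1, where 0 genes were called. At an unadjusted p under 0.05 there were 7.37%, with 4.24% higher and 3.13% lower. Neat1, a nuclear noncoding RNA, was at 105.99, 144.51, 355.98 and 431.5 CPM there and at 168.37, 317.73, 489.59 and 209.38 CPM in the selected keratinocytes, where the genotypes overlapped. Whether the genotype difference was unlike in the 2 sets was tested directly as an interaction, with the sample as a block. Of 8429 genes, 5 (0.0593%) passed, each with a more negative difference in the selected keratinocytes. At an unadjusted p under 0.05 there were 3.18%, with 1.21% more positive and 1.97% more negative. Psca, one of them, was in the list of periderm and simple epithelium and none of the 5 was in the spinous, cornified, junction or transcription factor lists. For Fkbp5 the interaction was 0.09 ± 0.59 SE on the log2 scale (adjusted p = 1, edgeR), for Krt8 0.36 ± 0.58 SE and for Ly6d -1.56 ± 0.52 SE (adjusted p = 1, edgeR).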

How the data were processed

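Single-cell mRNA was measured in 4 libraries made with the 10x 3' kit, 2 per genotype. The authors aligned the reads to mm10 with reporter sequences added (Cell Ranger 4.0.0 per the file headers and processing notes) and deposited raw UMI counts per gene and barcode for 32287 features, without normalization. The members and gene lists were chosen with earlier results of these data known. Counts of the selected cells were summed per library and tested with edgeR 4.0.16 in R 4.3.3 (TMM, filterByExpr, quasi-likelihood, genotype as the only term, Benjamini-Hochberg over all genes tested, threshold 0.05). The method was tested on simulated data. SE is the log2 fold change divided by the square root of F. CPM are plain shares of summed UMIs. Ratios between cell sets used CPM + 10. Named genes were members of 23 lists, the 20 leading genes, and, per direction, up to 10 genes past the threshold whose mean reached 20 CPM without overlap. Where fewer than 5 passed, the 5 of smallest p with a mean of 50 CPM or more were named. No doublet caller was run. Immune cells, other epithelial cells (at least 3 of 5 genes) and alternatives used the same kept barcodes. DESeq2 1.42.0 was an alternative. Gene positions are from GENCODE on GRCm38, the same build as mm10. Depth per library is given with the results. Intervals cover counting error only. Some genes of the lists and comparisons are not reported here, though they stay in the counts.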

Additional observations from a re-analysis of the deposited data

Results flagged for a closer look

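For 5 genes the genotype difference was unlike in the selected keratinocytes and in other epithelial cells, by the interaction test of edgeR (adjusted p under 0.05), and 4 of them are given here. Clca1, a secreted protein of mucous epithelium, had an interaction of -17.38 on the log2 scale (adjusted p = 7.65e-05, edgeR), with 0, 60.63, 0 and 0 CPM in the selected keratinocytes of DTA- 1, DTA- 2, DTA+ 1 and DTA+ 2 and 0, 0, 20.8 and 273.59 CPM in other epithelial cells. All 79 of its UMIs in the selected keratinocytes of DTA- 2 were in 1 cell. Ppbp, a platelet chemokine, had -15.15 (adjusted p = 0.00376, edgeR), with all 338 UMIs of the selected keratinocytes in 1 cell of DTA- 2. Psca had -5.41 (adjusted p = 0.00883, edgeR), at 0.66, 1745.21, 0.41 and 236.14 CPM in the selected keratinocytes and 0, 557.76, 161.48 and 1579.12 CPM in other epithelial cells. In the selected keratinocytes 1 cell held 99.96% of its UMIs in DTA- 2 and all 150 in DTA+ 2. A UMI was found in 0%, 1.82%, 1.03% and 3.70% of other epithelial cells. Nupr1, a stress-responsive nuclear protein, had -4.44 (adjusted p = 0.0284, edgeR), at 11.51, 53.72, 22.36 and 47.23 CPM and 1.54, 2.54, 41.59 and 60.59 CPM. In DTA- 2, 84.3% of its 70 UMIs in the selected keratinocytes were in 1 cell. Fitted values for Clca1, Ppbp and Psca rest on libraries without a UMI and are not bounds. With 2 libraries per genotype, no library could be tested as standing apart from its group.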

How the results depend on the processing

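The selected cells of the shallowest library held 635218 UMIs, and 40.9% of them came from 5 cells. The count of calls in the selected keratinocytes was again 1 with DESeq2 size factors, with at least 3 of 4 markers, with collagen at most 0.5% of UMIs, without shared barcodes, and with at least 3 of 5 epithelial genes (chosen after seeing the data). It became 8 with the DESeq2 Wald test, 43 with edgeR's likelihood ratio test, 201 with no filter on low counts, and 0 in cells under 7500 UMIs, in cells thinned to 1000 UMIs and in the high group of marker share (the last chosen after seeing the data). Those 3 fits tested 2223, 1152 and 5511 genes, of which 153, 59 and 296 had an unadjusted p under 0.05 (edgeR). Leaving out 1 library gave 0 to 29 calls, with 29 without DTA- 1, 2 without DTA- 2 and 0 without DTA+ 1 or DTA+ 2 (1199 and 642 genes at an unadjusted p under 0.05, edgeR). Every fit without 1 library left that genotype with 1 library, and its spread came from the other genotype alone. The log2 fold change of tdTomato was between 6.83 and 10.02 over the 15 alternatives that tested it. In other epithelial cells the 2 calls became 0 with DESeq2 size factors, 134 with no filter, 0 with collagen at most 0.5%, and 0 (without DTA- 1) to 190 (without DTA+ 1) when 1 library was left out. The 3 fits with 0 calls had 512, 518 and 331 genes at an unadjusted p under 0.05 (edgeR). The 5 interaction calls became 42 with no filter and 19 (without DTA- 2) to 90 (without DTA+ 1) when 1 library was left out. A fit with the replicate number as a block gave 8 calls in the selected keratinocytes and 15 in other epithelial cells. The labels tie the replicates by a number alone. Deviations of same-numbered libraries correlated across genes at 0.21 in the selected keratinocytes and -0.04 in other epithelial cells, from 2 pairs. Whether same-numbered libraries share a batch was not tested.

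The log2 ratio of shares turned from -0.30 to 0.75 after thinning to 1000 UMIs and to 0.12 in cells under 7500 UMIs, and ran from -1.03 to 0.36 when 1 library was left out (0.36 without DTA- 1 and 0.18 without DTA+ 2). Of the 49 genes followed through the alternatives, 14 values changed sign, 13 of them in cells under 7500 UMIs, where the log2 fold change was 2.35 for Zeb2, 0.13 for Lgals1, -0.87 for Calml3, -0.12 for Cebpb, -0.021 for Krt8, -0.088 for Krt18, 0.83 for Vim, 0.18 for Col6a1, 0.72 for Col1a2, 1.63 for Twist1, 0.74 for Col3a1, 0.47 for Col5a1 and 0.18 for Lum. With collagen at most 0.5%, Lum was at 0.28. The cause was not tested. Of the values that did not pass in the main comparison, 61 passed under an alternative, 31 of them with no filter, 15 with the likelihood ratio test, and 5 each with the DESeq2 Wald test, the replicate block and without DTA- 1. Fkbp5 stayed lower in DTA+ in the 13 alternatives that tested it, from -2.17 to -1.40, with an adjusted p between 3.28e-05 and 0.974 (edgeR and DESeq2).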
